A study of Mus musculus with 63 samples.

Results

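Mouse embryonic stem cells lacking the histone demethylase Jmjd1a were compared with wild-type cells under ordinary oxygen, using the 12 cultures of 63 in the study that came from these lines and were kept in normoxia. The wild-type lines WT1 and WT2 and the knockout lines JMJD1a KO1 and JMJD1a KO2 gave 6 cultures per genotype, 3 from each line. All were TT2 cells (C57BL/6 x CBA), male per the labels, grown in serum with leukaemia inhibitory factor. Each line was seeded at 2, 4 and 6 (in units of 100000 cells per plate of 6 cm), and was held at 21% oxygen for 24 h before total RNA was read on an Illumina mouse expression BeadChip. The labels name no agent for either genotype and do not say how each line was derived or whether it was 1 clone. Cultures of a line share its history, so line was the replicate and genotypes were compared as 2 lines against 2. The spread between lines was estimated over 7 normoxia lines, which add 2 G9a knockout lines and a G9a knockout line with G9a reconstituted, and cultures of the wild-type and Jmjd1a knockout lines held at 1% oxygen for 4 h or 24 h are used where stated.

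Jmjd1a, whose gene symbol is Kdm3a, removes methyl groups from mono- and dimethylated lysine 9 of histone H3, a mark that accompanies silent genes. Its counterpart in embryonic stem cells is the methyltransferase G9a (gene symbol Ehmt2), which together with its partner Ehmt1 writes the same mark. Jmjd1a is itself a hypoxia-induced gene, is needed for spermatogenesis and for energy metabolism in mice, and has been studied in embryonic stem cells for effects on self-renewal genes. The comparison asks which transcripts differ without the demethylase before any shortage of oxygen.

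The stem cell identity of all lines was checked first. All 8 embryonic stem cell markers, among them Pou5f1, Nanog and Esrrb, were above the floor of the array in every culture, with summed intensities of 39183 to 44205 in the knockout cultures, 40475 to 41112 in WT1 and 39735 to 43167 in WT2. Of 8 fibroblast feeder markers 5 (Col1a2, Col3a1, Postn, Lum and Dcn) were at the floor in all 12 cultures. The summed feeder markers nevertheless ran to 2544 to 3147 in WT2, against 388 to 398 in WT1 and 313 to 652 in the knockout cultures, and Acta2, the smooth muscle actin gene and 1 of the 3 other markers, was at 11.32 log2 intensity in WT2 and 7.33 to 8.53 in the other lines. Cdx2 and Elf5 (trophectoderm), Sox17, Gata4 and Foxa2 (endoderm), Sox1 and Pax6 (neural ectoderm) and Mixl1, Mesp1 and Kdr (mesoderm) were at the floor throughout. Of the other lineage markers, the trophectoderm gene Krt7 was above the floor in all 12 cultures and Gata3 in 6 wild-type and 5 knockout cultures, the endoderm gene Gata6 in 3 wild-type and Sox7 in 2 knockout cultures, and the neuronal gene Tubb3 in 1 of each genotype.

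WT2 stood apart from the other lines. In WT2 all 3 cultures gave Eif2s3y, a Y-linked translation factor gene, at the array's floor (an intensity of 20, or 4.32 on the log2 scale), whereas it was at 8.25 to 8.36 log2 intensity in WT1, 8.26 to 8.54 in JMJD1a KO1 and 8.09 to 8.15 in JMJD1a KO2, while the Y-linked Uty was above the floor in all 12. Array totals were 6974757 to 7565516 intensity units and 40.3 to 43.3% of probes were above the floor. The 63 arrays were divided into 8 sets of consecutive arrays in order of deposition, after steps seen in the totals and not from any label. Not every border was a step: totals were 8183542 to 8408782 in the sixth set and 8079619 to 8355538 in the seventh. In normoxia WT1 lay in the first set, WT2 in the second, JMJD1a KO1 in the third and JMJD1a KO2 in the fourth, so that line and array set cannot be told apart within normoxia. A fit of all 63 cultures with array set as a term could be made for JMJD1a KO1 against the wild-type lines alone, and its values are given below as the set-adjusted difference. The first set is joined to the second only by WT1 at 24 h of hypoxia, whose density 6 culture lay in the second. The second is joined to the third only by the WT2 cultures at 24 h of hypoxia. Set-adjusted differences therefore rest on few hypoxia arrays. In that fit, which used cultures as replicates, 244 genes (3.20%) passed an adjusted p of 0.05 as higher in JMJD1a KO1 and 148 (1.94%) as lower.

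Kdm3a itself was the first transcript read. At its brightest probe the wild-type cultures were at 10.08, 10.40 and 10.75 log2 intensity (lowest, median and highest of 6), and all 6 knockout cultures were at the floor of 4.32. Against the lowest signal above the floor on the same arrays, Kdm3a was at least 62.2-fold lower in the knockout lines (difference of -6.08 ± 0.15, SE, on the log2 scale; adjusted p = 4.99e-04). A second Kdm3a probe was also at the floor in every knockout culture. The remaining probe gave 9.22 ± 0.30 in wild-type and 5.14 ± 0.26 in knockout cells (SD, n = 6 cultures each), and was above the floor in all 18 knockout cultures of the 3 exposures. Kdm3a thus followed the genotype labels in all 4 lines. Where this last probe lies with respect to the sequence altered in the knockout is not given in the sources used here.

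**Figure D1:**
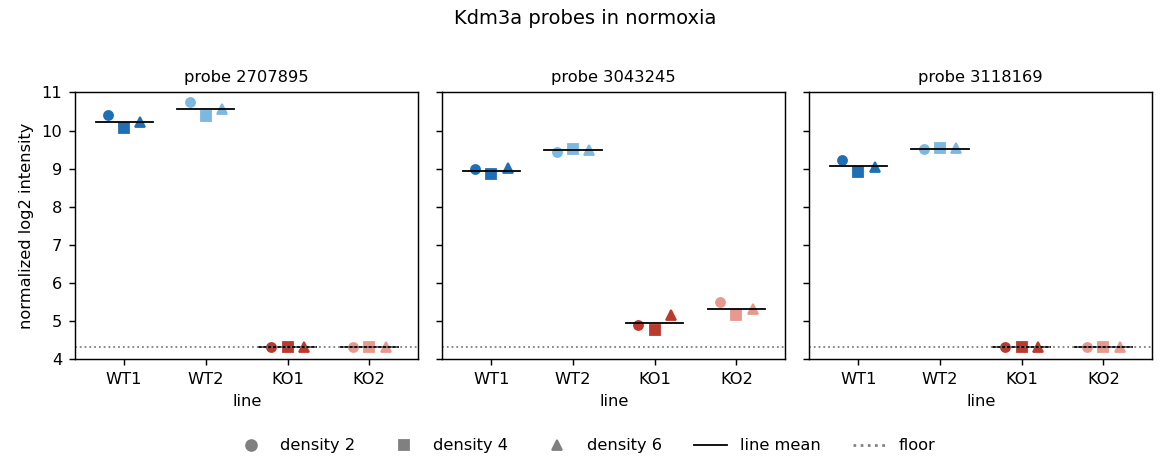
The 3 Kdm3a probes in normoxia, as normalized log2 intensity (y axis) of each culture by line (x axis; KO1 and KO2 are the Jmjd1a knockout lines); symbols mark seeding density, black lines the line means and the dotted line the floor of 4.32. The first and the last probe are at the floor in all 6 knockout cultures, and the middle one lies near 5 in knockout and near 9 in wild-type cultures.

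Among 7624 genes tested, Kdm3a was the only gene past an adjusted p of 0.05, which is 0.0131% of them. A further count was therefore made of genes whose 6 knockout cultures all lay on the same side of the 6 wild-type cultures. By this description 98 genes (1.29%) stood higher without Jmjd1a, by 0.07 to 1.66 on the log2 scale, and 158 (2.07%) stood lower, by 0.14 to 6.08. Differences over 1 log2 unit were found for 5 of the higher and 26 of the lower genes, and 284 genes (3.73%) had an unadjusted p under 0.05. Over all genes the median difference was 0.0017 and 44 genes differed by over 1 log2 unit. Since whole cultures were read, fewer cells with a transcript and less of it per cell cannot be told apart. None of the genes described next, Kdm3a aside, passed the adjusted threshold in the fit of line means. In 3 fits that used cultures or exposures with line as a random block, Rcsd1, Arhgap30, Gstp2, Liph, Prrc1, Npy and Csn3 passed each time, 7 genes besides Kdm3a. Tomm22, Atf4, Dner, Nckap1l, Nefm, Rhox5 and Tdrd12 passed in both fits of the normoxia cultures but not in that of the exposures. Adjusted p over the 3 fits was 9.69e-05 to 0.046 for Rcsd1, 1.09e-04 to 0.0126 for Gstp2 and 9.13e-05 to 0.0219 for Npy. The fit of line means gave 0.224 for Rcsd1 and 0.588 for Gstp2 and Npy. The 3 fits take repeated cultures or exposures of the same lines as observations. Their smaller p-values thus have no more than 2 lines per genotype behind them. With WT1 left out 6 genes passed (Kdm3a, Xlr4a, Eif2s3y, Ccn4, Col1a1 and Igfbp5), and leaving out each other line in turn left Kdm3a alone.

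After Kdm3a the smallest p-values belonged to Rcsd1 and Arhgap30, both lower in the knockout cultures. Rcsd1, which encodes a protein that binds actin-capping protein, was at 6.23, 6.59 and 6.87 in wild-type and 4.42, 4.76 and 5.12 in knockout cultures. These values come from 1 probe, and a second Rcsd1 probe was at the floor in every culture of both genotypes. All knockout cultures lay over 1 log2 unit below all wild-type ones, both knockout lines were near the floor, and the difference was -1.79 ± 0.16 (adjusted p = 0.224). It was the sole further gene to pass when the deposited values were left unscaled (adjusted p = 0.0497). Arhgap30, a GTPase-activating protein gene, was at 7.00, 7.08 and 7.43 in wild-type and 5.57, 5.91 and 6.08 in knockout cultures, a difference of -1.27 ± 0.13 (adjusted p = 0.296). Nckap1l, the blood cell subunit of the actin-regulating WAVE complex, was at 5.06, 5.34 and 5.55 in wild-type cultures and at the floor in all knockout cultures, at least 1.84-fold lower (adjusted p = 0.467). Was, the Wiskott-Aldrich syndrome gene and another actin regulator of blood cells, was at 5.97, 6.22 and 6.35 against 4.98, 5.43 and 5.70, a difference of -0.82 ± 0.16. For these 4 genes the 18 knockout cultures of all exposures lay below all 18 wild-type cultures. The set-adjusted differences were -1.60 ± 0.28 for Rcsd1, -1.23 ± 0.23 for Arhgap30, -0.83 ± 0.19 for Nckap1l and -0.64 ± 0.22 for Was.

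Glutathione S-transferases of the pi class, which conjugate glutathione to reactive compounds, were at lower values in the knockout cultures at each of 3 genes. Gstp2 was at 10.08, 10.77 and 11.20 in wild-type and 8.75, 8.86 and 9.08 in knockout cultures, a difference of -1.82 ± 0.28 (adjusted p = 0.588). The knockout lines were close to each other, at 8.96 and 8.82, while WT2 exceeded WT1 by 0.79. Gstp1 was at 10.75, 11.10 and 11.20 against 10.06, 10.23 and 10.39, a difference of -0.78 ± 0.17. Gstp3 was above the floor in all wild-type cultures, at 4.77 to 5.82, and at the floor in all knockout cultures. The 3 genes are close relatives on chromosome 19, so their probes may share transcripts and are not independent of each other. Gpx2, a glutathione peroxidase gene, had a difference of -0.80 ± 0.13, with wild-type cultures at 7.62, 8.00 and 8.02 and knockout cultures at 7.01, 7.08 and 7.22. The set-adjusted difference was -0.22 ± 0.27 for Gpx2, -1.39 ± 0.23 for Gstp2 and -0.66 ± 0.30 for Gstp3. In the G9a knockout lines, where Kdm3a was at 10.81 and 10.80, these genes were read against the same wild-type lines. They differed by -0.83 ± 0.13 for Gpx2, -1.63 ± 0.28 for Gstp2 and -0.40 ± 0.20 for Gstp3. Lower values of Gpx2 and Gstp2 were thus not particular to the Jmjd1a knockout lines.

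Tomm22, the receptor through which proteins enter mitochondria, was at 9.68, 9.89 and 9.96 in wild-type and 7.57, 8.08 and 8.50 in knockout cultures. The knockout lines differed from each other (8.44 in JMJD1a KO1 and 7.64 in JMJD1a KO2) but both lay over 1 log2 unit below the wild-type lines (9.77 and 9.93), for a difference of -1.81 ± 0.27 (adjusted p = 0.588). Its set-adjusted difference was -1.56 ± 0.16. Atf4, the transcription factor of the integrated stress response, was at 9.32, 9.85 and 10.17 against 7.90, 8.48 and 9.02, a difference of -1.27 ± 0.20 and a set-adjusted one of -0.77 ± 0.25. In every line the culture at density 2 had the lowest Atf4 level. Among the other genes of the stress response, of 25 tested 20 were higher and 5 lower. None separated the genotypes, against 3.36% of all genes tested, and their median was 0.09 (range -0.35 to 0.43). Asns, asparagine synthetase and a standard target of Atf4, was at 11.85 and 12.20 in WT1 and WT2 and at 12.14 and 12.24 in the knockout lines. Trib3, a pseudokinase gene induced by Atf4, was at 5.52 and 6.04 against 6.05 and 6.37. Asns and Trib3 were chosen for mention after their values were seen.

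Several further genes had no overlap between the genotypes. Alox5ap, which presents arachidonic acid to 5-lipoxygenase, was at 5.84, 6.21 and 6.63 in wild-type and 4.32, 4.75 and 5.01 in knockout cultures, a difference of -1.57 ± 0.33. Heph, a membrane ferroxidase, was at 6.77, 6.96 and 7.29 against 4.91, 5.32 and 6.27, with JMJD1a KO2 above JMJD1a KO1 by 0.77. Pdzk1, a scaffold for membrane transporters, was at 6.47, 6.93 and 7.95 against 4.54, 5.82 and 6.03, a difference of -1.49 ± 0.40 and a set-adjusted one of -0.78 ± 0.33. Liph, a phospholipase gene, was at 9.05, 9.22 and 9.31 against 8.15, 8.28 and 8.46, a difference of -0.88 ± 0.11. Smoc1, a secreted calcium-binding matrix protein, gave -1.01 ± 0.20, and Prrc1 was at 10.30 in wild-type and 9.30 in knockout cells on average. The transglutaminase gene Tgm2 gave -1.24 ± 0.42, Smagp, a small adhesion glycoprotein, -0.78 ± 0.13, and Dnajc5g, a DnaJ family gene, -1.44 ± 0.25.

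**Figure D2:**
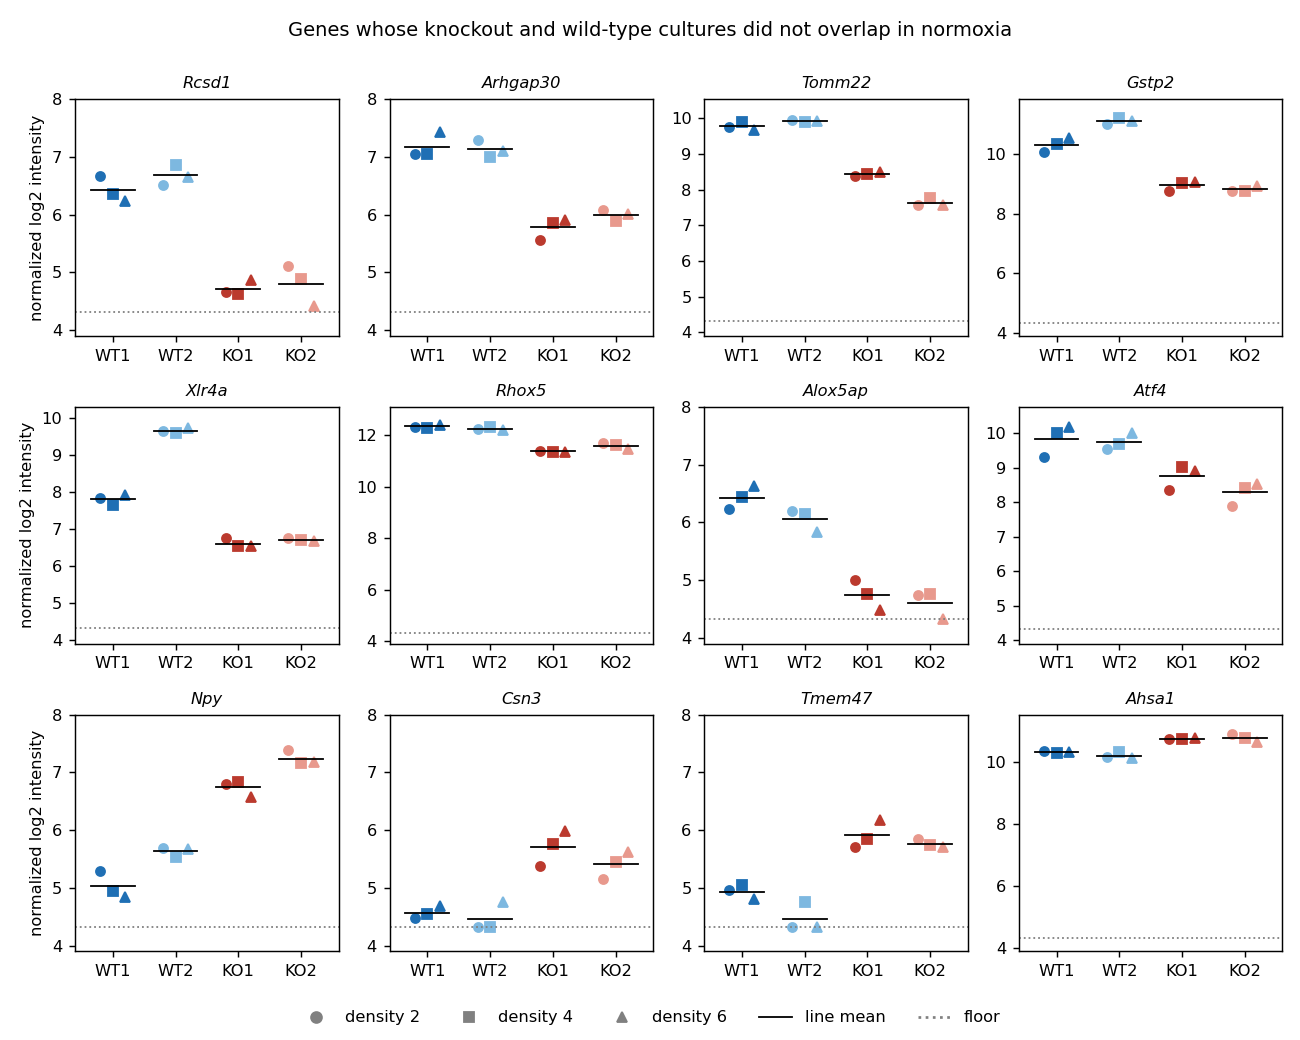
Normalized log2 intensity (y axes) of 12 genes in each normoxia culture by line (x axes); symbols mark seeding density, black lines the line means and the dotted line the floor. In each panel the 6 knockout cultures lie on the same side of the 6 wild-type cultures, and for Xlr4a the wild-type lines also differ from each other by 1.85 log2 units.

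Genes known for silencing by histone H3 lysine 9 methylation in early embryos and germ cells were read from lists of germline genes and of Mage and X-linked cancer-testis genes. Of 9 tested genes of the X-linked list 2 separated the genotypes (22.2%, against 3.36% of all genes tested). Both were lower without Jmjd1a, and the list's median difference was -0.07. No list was tested as a set. Rhox5, an X-linked homeobox gene strongly expressed in testis and placenta, was at 12.21, 12.29 and 12.39 in wild-type and 11.34, 11.42 and 11.71 in knockout cultures, a difference of -0.82 ± 0.20 (adjusted p = 0.925) and a set-adjusted one of -0.91 ± 0.10. Xlr4a was at 7.64 to 7.92 in WT1, 9.59 to 9.72 in WT2, 6.53 to 6.74 in JMJD1a KO1 and 6.67 to 6.76 in JMJD1a KO2. The difference of -2.07 ± 0.58 had an adjusted p of 0.9998 with WT2 1.85 above WT1, and it was -2.99 ± 0.13 against WT2 alone, where it passed (adjusted p = 0.0253). Against WT1 the knockout lines differed by -1.20 and -1.09, and with WT2 left out the gene did not pass. Xlr4a belongs to a family of near-identical copies, so which of them the probe read is uncertain.

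Of 14 tested germline genes 2 lower ones and 1 higher one separated the genotypes (21.4%, against 3.36% of all genes tested). Their list had a median difference of -0.12. Tex19.1, a germ cell gene that restrains transposons, was at 10.72 and 11.39 in the wild-type lines and 10.32 and 10.23 in the knockout lines (difference of -0.78 ± 0.28). Dnmt3l, the cofactor of the DNA methyltransferases that act on new sites, was at 12.96 and 13.22 against 12.66 and 12.71 (difference of -0.41 ± 0.14). The higher gene was Zfp42, described below with the pluripotency genes. The 5 genes of the 2-cell embryo that could be tested gave no separated gene and a median of 0.03.

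Among the 98 genes higher without overlap, the neuropeptide gene Npy had the largest difference. It was at 4.84, 5.41 and 5.69 in wild-type and 6.58, 6.99 and 7.39 in knockout cultures, a difference of 1.66 ± 0.27 (adjusted p = 0.588). The groups did not overlap, and the set-adjusted difference for JMJD1a KO1 was 0.47 ± 0.29. Csn3, which encodes the milk protein kappa-casein, was at 4.32, 4.51 and 4.75 against 5.15, 5.53 and 5.98 (difference of 1.04 ± 0.14, set-adjusted 0.99 ± 0.38). Dner, a neuronal transmembrane protein that binds Notch1, was at the floor in 5 wild-type cultures and at 4.41 in the sixth, and at 5.09, 5.25 and 5.41 in knockout cultures (difference of 0.92 ± 0.11). Tmem47, a cell junction protein gene on the X chromosome, was at 4.32, 4.78 and 5.04 against 5.71, 5.79 and 6.18 (difference of 1.14 ± 0.18). Many of these levels are close to the floor, and a culture at the floor gives only a bound. Unc45b, a muscle myosin chaperone gene, and Lor, which encodes the skin protein loricrin, were the other separated genes over 1 log2 unit (1.50 ± 0.35 and 1.01 ± 0.27) and were named after their values were seen.

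Smaller differences with no overlap included C1galt1, the enzyme that starts core O-glycans (0.66 ± 0.11, set-adjusted 0.43 ± 0.19), Eppk1, the cytolinker epiplakin (0.61 ± 0.13), the desmosomal cadherin gene Dsg2 (0.60 ± 0.13) and the glutamine transporter gene Slc38a1 (0.74 ± 0.17). Nrp gave 0.62 ± 0.12 (set-adjusted 0.15 ± 0.31) and Noxred1 0.67 ± 0.14 (set-adjusted 0.41 ± 0.22). Nes, which encodes the neural progenitor filament nestin, was at 6.98 and 6.58 in the wild-type lines and 7.47 and 7.52 in the knockout lines. Map2, a neuronal microtubule gene, was at 5.56 and 5.54 against 6.02 and 6.01. Nes and Map2 were the 2 separated genes among 9 of the epiblast and ectoderm list (22.2%, against 3.36% of all genes tested). The median difference of that list was 0.08. Fabp3, a fatty acid carrier gene, was at 10.20 and 10.19 against 10.75 and 10.78. It was the sole separated gene of 19 in lipid metabolism (5.26%, against 3.36% of all genes tested).

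Transcripts at the floor in all cultures of a genotype and above it in all of the other were few. Besides Kdm3a, Nckap1l and Gstp3, those at the floor without Jmjd1a included Tmco4 at 5.12 to 5.59, Ttc39c at 4.88 to 5.50, Lgals3bp, a secreted galectin-binding protein, at 4.95 to 6.13, the RNA-binding protein gene Hnrnpd at 4.72 to 5.43 and the testis protease gene Prss42 at 4.63 to 5.20. The bound was at least 1.89-fold for Tmco4, 1.69-fold for Ttc39c, 1.89-fold for Lgals3bp, 1.52-fold for Hnrnpd and 1.40-fold for Prss42. Lgals3bp was also at the floor in both G9a knockout lines and the reconstituted line, where Kdm3a was at 10.68 to 10.81. Its absence was thus not particular to the Jmjd1a knockout lines. Means of Tmco4, Ttc39c, Hnrnpd and Prss42 lay above the floor in those lines with altered G9a. Moxd1, a monooxygenase gene, and Ppp4r4, a phosphatase regulator, were the 2 detected solely in knockout cultures, at 4.50 to 5.30 and 4.50 to 5.01 (at least 1.46-fold and 1.16-fold higher). Set-adjusted differences were smaller for Ttc39c (-0.40 ± 0.30), Prss42 (-0.25 ± 0.34) and Moxd1 (0.41 ± 0.28) and had the opposite sign for Hnrnpd (0.39 ± 0.37).

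Enzymes that write, read or erase histone H3 lysine 9 methylation were measured to see whether others moved with the missing demethylase. Of the 9 further demethylase genes tested 5 were higher and 4 lower, and the range was -0.16 to 0.31. None separated the genotypes, against 3.36% of all genes tested, a share at which 9 genes would mostly hold none. Kdm1a was at 11.08 in wild-type and 11.16 in knockout cells, Kdm4b at 8.08 and 8.08, Kdm4c at 8.26 and 8.23, and Kdm4a, near the floor, at 4.46 and 4.77. Jmjd1c, a member of the same JmjC family, averaged 5.52 and 5.53, but these means hid a split within each genotype: it was at the floor in all 3 WT2 cultures and at 6.47 to 6.91 in WT1, and at 6.38 on average in JMJD1a KO1 and 4.32 to 4.94 in JMJD1a KO2.

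The 17 methyltransferase and reader genes had a median difference of -0.01 and a single separated member, Dnmt3l (5.88%, against 3.36% of all genes tested). Ehmt2, which encodes G9a, was at 8.66 in wild-type and 8.44 in knockout cells (difference of -0.22 ± 0.16), and its partner Ehmt1 at 9.75 and 9.63. Setdb1, the methyltransferase that silences retroviral elements, was at 8.07 and 8.12, and its recruiter Trim28 at 12.75 and 12.80. The heterochromatin protein gene Cbx5 was at 8.66 and 8.63 and Uhrf1, which links histone marks to DNA methylation, at 12.02 and 12.04. Cdyl2, a chromodomain gene, had the widest difference of the list, -0.63 ± 0.26, with WT2 0.74 above WT1.

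Naive pluripotency genes, which mark the ground state held by leukaemia inhibitory factor, were 20 in number and had a median difference of 0.01. Esrrb and Zfp42 stood higher without overlap, Fbxo15 lower (15% separated, against 3.36% of all genes tested), and the other 17 overlapped. Esrrb, an orphan nuclear receptor of the naive network, was at 11.17, 11.59 and 11.80 in wild-type and 11.98, 12.07 and 12.24 in knockout cultures, a difference of 0.55 ± 0.19 (adjusted p = 0.9998). Zfp42, the zinc finger marker Rex1, was at 10.84 and 11.30 in the wild-type lines and 11.61 and 11.47 in the knockout lines (difference of 0.47 ± 0.21). Fbxo15 gave -0.22 ± 0.12. Nanog was at 11.65 and 11.91, Klf4 at 8.16 and 8.30, Klf2 at 10.65 and 10.67, Dppa3 at 9.35 and 9.71, and Tcl1, a cofactor of the kinase Akt that has been named as a Jmjd1a target in stem cells, at 9.13 and 9.22 (wild-type and knockout means). Gbx2 had the lowest value, -0.76 ± 0.46, with WT2 at 10.06 and the other 3 lines at 8.42 to 8.79.

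None of the 10 core pluripotency genes separated the genotypes, against 3.36% of all genes tested, a share at which so few would mostly hold none. Pou5f1 was at 12.21 in wild-type and 12.31 in knockout cells, Sall4 at 12.07 and 12.07, Utf1 at 10.53 and 10.55 and L1td1 at 11.86 and 11.89. Sox2 read 9.78, 6.55, 9.31 and 8.08 in WT1, WT2, JMJD1a KO1 and JMJD1a KO2 at its brightest probe, a range not seen at its other probe, where WT1 cultures were at 8.59 to 8.94, WT2 at 8.85 to 9.13, JMJD1a KO1 at 8.82 to 9.11 and JMJD1a KO2 at 9.10 to 9.20. The 2 probes therefore disagreed on the wild-type lines.

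**Figure D3:**
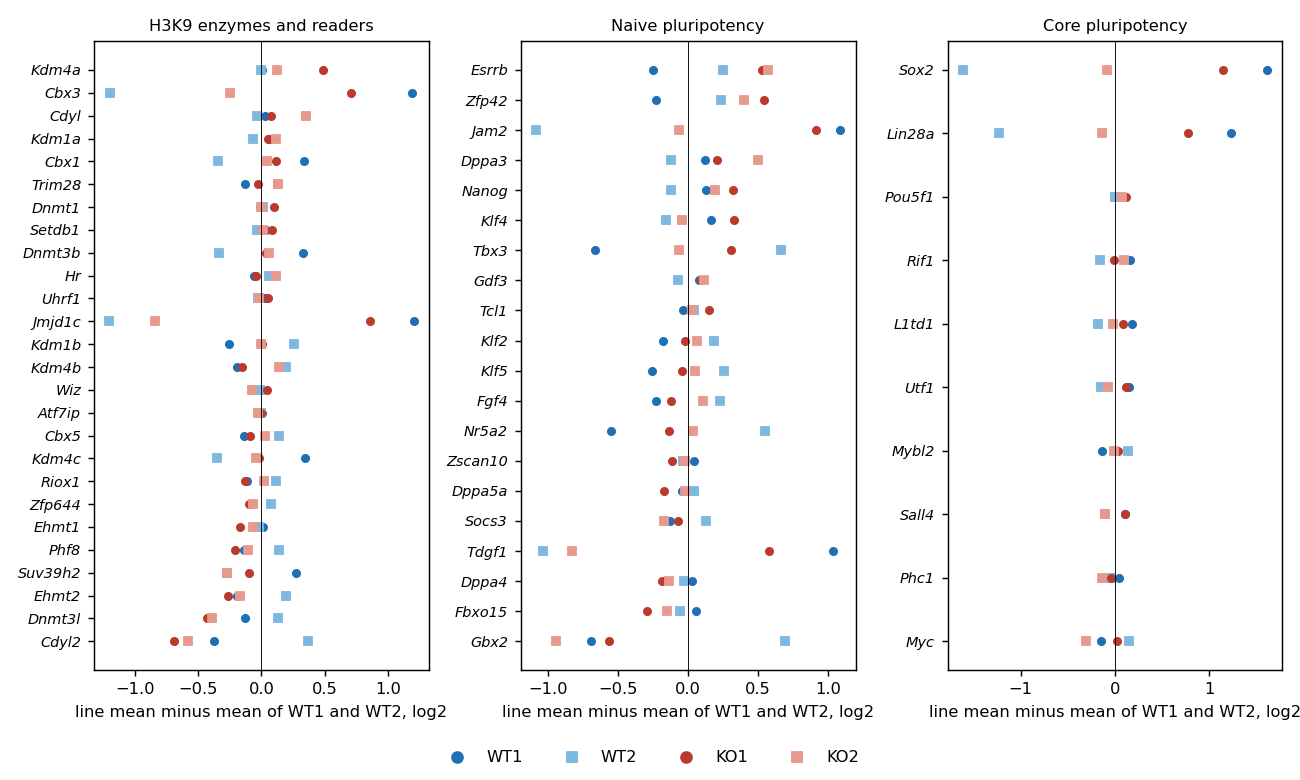
Line means minus the average of WT1 and WT2 on the log2 scale (x axes) for the tested histone H3 lysine 9 genes other than Kdm3a (left), naive (middle) and core pluripotency genes (right), ordered by the genotype difference (y axes). For most genes at least 1 knockout line lies between the wild-type lines or they fall on both sides; Esrrb, Zfp42 and Dnmt3l are among those with both knockout lines outside the wild-type lines.

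Esrrb lay within a run of neighbouring genes that were all higher without Jmjd1a. In the order of genes on chromosome 12 (RefSeq order of assembly GRCm38.p6), the 16 consecutive tested genes from Erg28 to Gm5662 had differences of 0.18 to 0.78 with a median of 0.44, and 9 of the 16 separated the genotypes. Of all genes tested 3.36% did so. JMJD1a KO1 lay above both wild-type lines for all 16 and JMJD1a KO2 for 12. Ahsa1, an activator of the chaperone Hsp90, was at 10.13, 10.31 and 10.37 in wild-type and 10.67, 10.77 and 10.92 in knockout cultures (difference of 0.51 ± 0.11). Slirp, a mitochondrial RNA-binding protein gene, was at 11.13, 11.21 and 11.35 against 11.60, 11.64 and 11.73, and the sterol synthesis scaffold gene Erg28 at 8.39, 8.57 and 8.68 against 8.85, 9.08 and 9.16. These 3 were the only genes of the 7624 whose 18 knockout cultures over all exposures lay above all 18 wild-type cultures.

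Genes on either side of the run were near 0 in most cases. The 12 tested genes before it had a median of 0.02 and the 12 after it 0.02, and none of the 24 separated the genotypes, although Jdp2, directly before the run, was at 0.80 ± 0.30. Its median was 0.46 among the same lines after 4 h of hypoxia, with 16 of 16 genes higher, and 0.41 after 24 h, with 15 of 16. The set-adjusted median for JMJD1a KO1 was 0.41. In G9a knockout lines, compared with the same wild-type cultures, it was -0.08. Without WT1 the median was 0.33, and without each other line in turn 0.48 to 0.51. Over 6433 windows of 11 neighbouring genes, the window around Pomt2 in this run had the highest median of any chromosome (0.50, next 0.33 on chromosome 8). A window of lower genes, around Krt7 on chromosome 15, had a median of -0.31. On chromosome 15, 6 of 321 tested genes separated higher and 15 lower (6.54%), against 13 and 3 of 255 (6.27%) on chromosome 12. The lower genes of chromosome 15 include Tomm22, Atf4, Krt7, Smagp and Nckap1l, and the higher ones Eppk1 and Slc38a1. The chromosome 12 run was picked after its values were seen. Copy number was not measured in these files, and its part in the result was not tested.

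**Figure D4:**
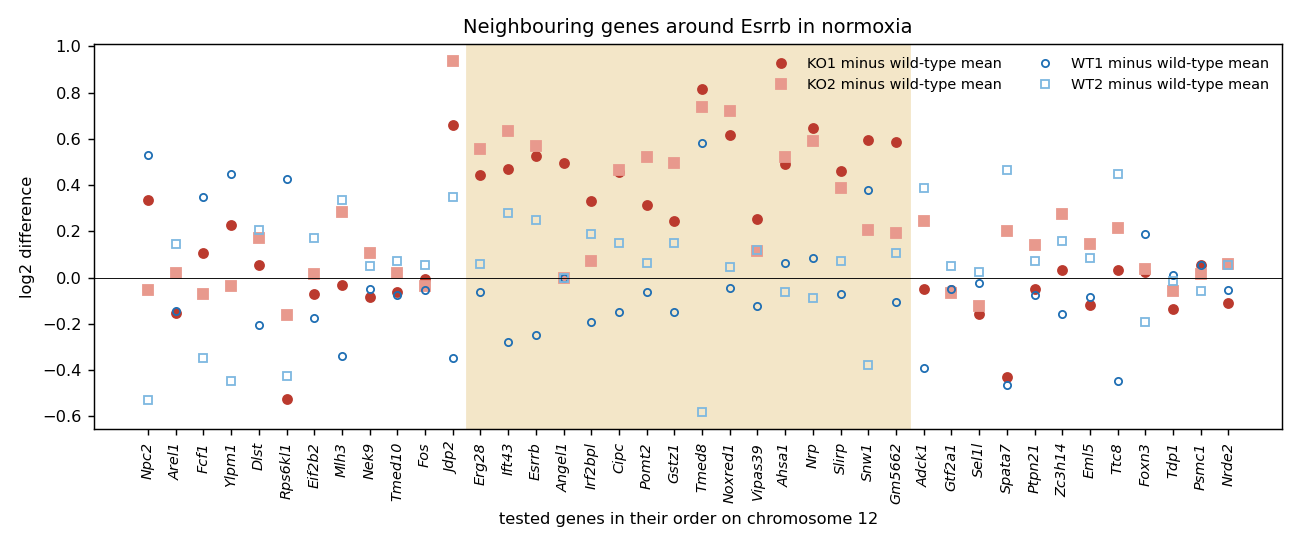
Line means minus the average of WT1 and WT2 on the log2 scale (y axis) for 40 tested genes in their order on chromosome 12 (x axis), with the 16 genes from Erg28 to Gm5662 shaded; filled symbols are the knockout lines and open symbols the wild-type lines. Knockout symbols lie above 0 throughout the shaded stretch, apart from Angel1 in KO2, which is level with wild-type, and scatter around 0 on both sides of it.

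Genes described elsewhere as Jmjd1a targets could be tested in 7 of 19 cases, and none separated the genotypes in normoxia. Of all genes tested 3.36% did so, a share at which 7 genes would mostly hold none. Acadm, a fatty acid oxidation enzyme gene, was at 11.18 in wild-type and 11.17 in knockout cells, Ccnd1, which encodes cyclin D1, at 10.25 and 10.39, and Hmox1, haem oxygenase, at 8.73 and 8.59. Acta2 averaged -1.53 ± 1.47, with lines at 7.59 (WT1), 11.32 (WT2), 7.33 (JMJD1a KO1) and 8.53 (JMJD1a KO2), and Tagln, a further smooth muscle gene, -0.79 ± 0.70. For both the highest line was WT2. The imprinted adaptor gene Grb10 was at -0.82 ± 0.38, where WT2 exceeded WT1 by 1.20.

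Inhibitors of angiogenesis held 15 tested genes with a median of -0.23. Serpinf1, which encodes pigment epithelium-derived factor, was at 7.11 and 6.81 in the wild-type lines and 5.41 and 5.95 in the knockout lines, a difference of -1.28 ± 0.22 (adjusted p = 0.655). Its level was lowest at density 2 and highest at density 6 in each line, and its cultures overlapped in normoxia and separated at 4 h and at 24 h of hypoxia (-1.47 and -1.56). Igfbp3, a binding protein of insulin-like growth factors, had the opposite sign, at 5.68 and 6.00 against 6.52 and 7.16, while Igfbp4 gave -0.61 ± 0.15. Among 18 stimulators Angpt2, an antagonist of the Tie2 receptor, was the sole separated gene (-0.53 ± 0.15, knockout cultures at or near the floor). That is 5.56% of the stimulators, against 3.36% of all genes tested. The set-adjusted differences were -0.49 ± 0.45 for Serpinf1, 0.21 ± 0.24 for Igfbp3 and -0.07 ± 0.44 for Igfbp4.

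Hypoxia-inducible genes, read here before hypoxia, included 25 tested members with a median of -0.07. They held no separated gene, against 3.36% of all genes tested. The oxygen-sensing hydroxylase gene Egln3 had the smallest p, at -0.50 ± 0.13, with cultures at 6.93 to 8.65 in wild-type and 6.34 to 8.39 in knockout lines. Glycolysis (16 genes, median 0.03), oxidative phosphorylation (45, -0.03), G2 and mitosis (18, -0.02) and DNA replication (25, 0.05) held no separated gene. Of 21 p53 target genes 3 separated the genotypes (14.3%, against 3.36% of all genes tested). Cdkn1a, the cyclin-dependent kinase inhibitor p21, was at 8.97 and 9.03 in wild-type and 8.43 and 8.64 in knockout lines. The others were Ei24 at -0.28 ± 0.12 and Gadd45a at 0.32 ± 0.17. In extracellular matrix and adhesion (26 genes, median 0.05), the basement membrane linker Nid1 gave -0.80 ± 0.17 and the tight junction gene Cldn7 0.44 ± 0.15. The trophectoderm keratin gene Krt7 gave -0.56 ± 0.18, and in cholesterol synthesis Nsdhl and Msmo1, which act at the same stage, gave 0.42 ± 0.14 and -0.49 ± 0.23.

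Over all 34 lists, 516 listed genes were tested. Of these 9 stood higher and 13 lower with no overlap, 4.26% against 3.36% of all genes tested, and Kdm3a is among them. A total of 20 lists held no separated gene. Medians of the 33 lists with more than 2 tested genes ran from -0.41, for fibroblast feeder genes, to 0.18, for FGF and ERK signalling, and the feeder genes were also 1.23 higher in WT2 than in WT1 at the median.

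Differences between lines were set out for each pair. Between WT2 and WT1, with cultures as replicates and density as a term, 3630 genes (47.6%) passed the threshold, 2173 (28.5%) higher and 1457 lower in WT2. Between JMJD1a KO2 and JMJD1a KO1 547 genes (7.17%) passed, 147 (1.93%) higher and 400 lower in JMJD1a KO2. Without quantile scaling the splits were 1162 higher and 1933 lower between the wild-type lines, the opposite balance, and 67 and 384 between the knockout lines. Without density 2, 4 or 6 the knockout lines differed at 65, 22 and 922 genes and the wild-type lines at 2369, 2005 and 3800. Between single lines, differences over 1 log2 unit numbered 671 for WT2 against WT1 and 113 for JMJD1a KO2 against JMJD1a KO1. Against WT1 they numbered 52 for JMJD1a KO1 and 289 for JMJD1a KO2, and against WT2 551 and 269. The median size of a difference was 0.26 between the wild-type lines, 0.12 between the knockout lines and 0.13 to 0.21 for the 4 pairs of a knockout and a wild-type line. The first component of 6639 genes held 63.0% of the variance and 99.0% of it lay between lines and 4.82% between genotypes. The second component held 12.7%, with 99.7% of it between lines and 94.9% between genotypes. Each line has 1 genotype, so the genotype share is part of the line share. The wild-type cultures were at 4.65 to 10.08 on this component and the knockout cultures at -9.21 to -6.08.

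A fit of all 63 cultures with array set as a term, which changes both the cultures and the model, gave 927 genes between WT2 and WT1, 464 higher and 463 lower. The step between their array sets was estimated from the WT1 cultures at 24 h of hypoxia alone, with density 6 in the second set. Acta2 then differed by 3.45 ± 0.33, the skeletal actin gene Acta1 by 3.35 ± 0.41, the myelin protein gene Pmp22 by 2.99 ± 0.34, Xlr4a by 1.80 ± 0.17 and Eif2s3y by -2.89 ± 0.18. Eif2s3y was above the floor in 4 of 9 WT2 cultures over all exposures and in 9 of 9 WT1 cultures. Genes of chromosome 1 were 0.32 higher in WT2 at the median in this fit, while medians of the other autosomes and X were -0.06 to 0.05. Between the knockout lines (JMJD1a KO2 minus JMJD1a KO1, log2) Acta2 was at 1.20, Acta1 at 1.07, Pmp22 at 0.98 and the growth factor gene Fgf8 at 1.14. At the other end were Ssb at -2.03, Ktn1 at -1.95, Rpl39l at -1.93, Rad21 at -1.83 and Nono at -1.82.

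**Figure D5:**
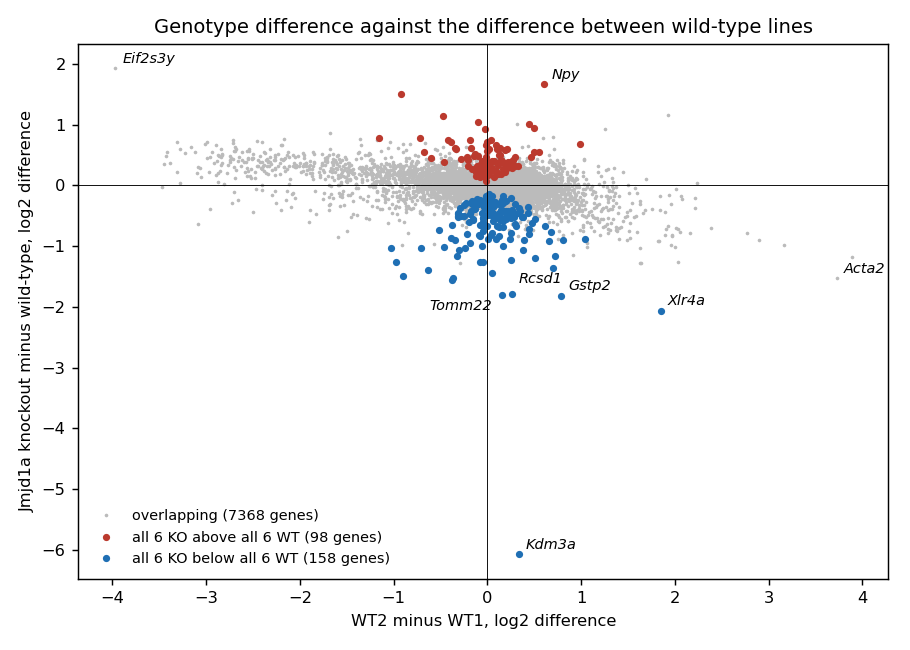
The genotype difference (y axis, Jmjd1a knockout minus wild-type, log2) against the difference between the wild-type lines (x axis, WT2 minus WT1, log2) for 7624 genes. Coloured points are the 98 genes with all knockout cultures above and the 158 with all below the wild-type cultures; grey points overlap and spread further along the x axis than along the y axis, and both axes share the wild-type cultures.

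The normoxia differences were also read in hypoxia cultures (1% oxygen) of the same lines. Of the 98 higher genes 18 also separated the genotypes in the same direction after 4 h and 16 after 24 h, and of the 158 lower genes 80 and 83. Of all genes tested, 47 (0.616%) stood higher and 170 (2.23%) lower without overlap after 4 h, and 80 (1.05%) and 293 (3.84%) after 24 h. The cultures came from the same 4 lines, so differences of the lines themselves recur at each exposure and cannot be told apart from genotype here. None separated in the opposite direction. Over all 36 cultures 25 genes (0.328%) lay lower and 3 (0.0393%) higher in each knockout culture than in every wild-type culture. Those lower in all included Kdm3a, Rcsd1, Arhgap30, Gstp1, Gstp2, Tomm22, Rhox5, Xlr4a and Alox5ap, the acetyl-CoA synthetase gene Acss1 (-0.65 ± 0.23), the splicing regulator gene Mbnl2 (-0.59 ± 0.25), the ion transport regulator gene Fxyd6 (-0.54 ± 0.24), the deubiquitinase gene Mindy1 (-0.52 ± 0.15), the calmodulin-like gene Calml4 (-0.90 ± 0.23) and the cilium transport genes Ift52 (-0.45 ± 0.14) and Ift27 (-0.45 ± 0.18). Set-adjusted differences were smaller for Acss1 (-0.23 ± 0.28), Fxyd6 (-0.03 ± 0.20), Calml4 (-0.38 ± 0.25) and Ift52 (-0.21 ± 0.16).

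The differences of several genes were set side by side over the exposures. Gstp2 differed by -1.87 after 4 h and -2.61 after 24 h of hypoxia, Gstp1 by -0.94 and -1.47, and Arhgap30 by -1.28 and -1.75. Npy differed by 1.53 and 0.65, Dner by 1.15 and 0.13, and Esrrb by 0.44 and -0.09. No gene passed in the test of these shifts with limma, at 4 h (391 genes with an unadjusted p under 0.05, 5.13%) or at 24 h (151, 1.98%), so a dependence on oxygen was not shown for any of them.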

How the data were processed

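Total RNA of the 63 cultures was hybridised to 1-colour Illumina mouse BeadChips, and the authors deposited a linear intensity per probe that never falls below 20. How those intensity values were background-corrected or scaled is not given in the sources used here, and the number of arrays limits the precision. Values were quantile-normalized over the 63 arrays on the log2 scale with the floor restored (limma 3.58.1, R 4.3.3). Of 25697 probes, 11022 were above the floor in all 3 normoxia cultures of at least 1 wild-type or Jmjd1a knockout line, and 10387 of these had a gene symbol. The brightest kept probe stood for its gene where there were several (2003 genes), which gave 7624 genes. A total of 23978 probes had a symbol in the platform annotation, 23962 of them matched to RefSeq by Entrez identifier, and 1719 had none. A companion file held 126 columns that could not be given a sample and were not used.

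Line means of 7 normoxia lines in 4 genotype groups were fitted with limma (5.32 total degrees of freedom), and two-sided p-values were adjusted by Benjamini-Hochberg over all 7624 genes, with a threshold of 0.05. Comparisons of lines and of exposures used cultures as replicates or line means in the same tool, and p-values between lines measure only the spread between cultures of a line. The scripts were tested on simulated data. The members, the 34 gene lists and the tests were chosen with earlier results of these data known. Genes named were Kdm3a, the 12 of each direction with the smallest p among those without overlap (fewer than 12 having passed), genes at the floor in 1 genotype only, up to 4 of each list by p, more of the histone, target and pluripotency lists, and up to 5 in each direction between the knockout lines. Not all were printed. Genes separated over all 36 cultures, those passing without WT1, Unc45b, Lor, Asns, Trib3 and the chromosome 12 run were named after their values were seen. Alternatives changed the scaling, the filter, the probe rule, the model and the cultures included.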

Additional observations from a re-analysis of the deposited data

Results flagged for a closer look

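Among 120 genes named here, 8 of 240 groups of 6 cultures held a culture far from the other 5 by Dixon's criterion, and chance flags about 1 in 20 groups. Dner was at 4.41 in the WT1 culture at density 6, with the other wild-type cultures at the floor of 4.32. Tmem47 was at 6.18 in the JMJD1a KO1 culture at density 6, and the next knockout culture was at 5.84. Cbx5 was at 9.01 in the WT2 culture at density 2, next to 8.69. Angpt2 was at 4.54 in the JMJD1a KO2 culture at density 2, with the other knockout cultures at the floor. Ei24 was at 9.43 in the JMJD1a KO1 culture at density 6, below the next at 9.63. Krt7 was at 5.71 in the WT2 culture at density 2, next to 5.44. Prrc1 was at 10.15 in the WT2 culture at density 6, below the next at 10.29. Nrp was at the floor (4.32) in the WT2 culture at density 6, below the next at 4.96.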

How the results depend on the processing

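Kdm3a passed the threshold under every alternative run, with differences of -4.08 to -6.25. The count of genes passing was 1 in the main setting and 2 without quantile normalization. It was 33 (8 higher, 25 lower) with cultures as replicates and line as a random block, and 15 (5 and 10) with 21 line by exposure means. It was 290 (92 and 198) with cultures and no block, a fit that treats cultures of a line as independent, and 392 (244 and 148) with array set as a term for JMJD1a KO1. With density as a replicate block and line as a random block it was 16 (4 and 12). Density is a labelled condition that all lines share. Over 18 same-density pairs of cultures the correlation of deviations was -0.09 to 0.46 (median 0.26, against -0.07 for other pairs), and 85.6% of the third component (8.55% of the variance) lay between densities. Leaving out a line gave 1 to 6 genes, 243 to 1031 higher and 252 to 1367 lower genes without overlap, and a chromosome 12 median of 0.33 to 0.51. Between the knockout lines 1039 genes passed with scaling over the 12 arrays and the 4 lines fitted alone, and 22 to 922 with a density left out. Between the wild-type lines 927 passed with array set as a term and 2005 to 3800 with a density left out. The causes were not tested. Of 2468 values under alternatives for named genes other than Kdm3a, 162 (74 genes) passed. None of these genes had passed in the main setting, so no pass could be lost. With 2 lines per genotype the median SE of a difference was 0.16 log2 units, and genes at the floor gave only bounds.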
